A study of Mus musculus with 6 samples.

Results

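Among the genes measured in cells sorted from the adult mouse subventricular zone (SVZ), 41 of 55487 were clearly expressed in THC cells and at less than 0.25 of that level in every TKO library. They were chosen from the normalized counts themselves: a mean of at least 100 over the THC libraries, every TKO value under 25% of that mean, and every THC value above every TKO value. Rbl1, which encodes p107 and is deleted by design, was left out. Because the choice used the TKO and THC values, the difference between the genotypes is given below as a description, with no test. Of the 41 genes, 9 belong to myelin and oligodendrocytes, 6 to astrocytes, 5 to neuroblast or neuronal signalling, and 8 encode other transporters, channels and enzymes. A further 3 are matrix, adhesion and blood genes, 4 encode proteins with little annotation, and 6 are non-coding.

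The cells came from NestinCreERT2/R26;EYFP mice on a C57BL/6;Sv/129 background, in which tamoxifen activates a recombinase driven by Nestin regulatory sequence and turns on a YFP reporter in the same cells and their descendants. TKO mice were Rb(F/F);p107(-/-);p130(F/F) and THC mice were Rb(F/+);p107(+/-);p130(F/+), so that THC cells also carried 1 altered allele at each locus. Both genotypes were given 5 daily gavages of tamoxifen (200 mg/kg each) at an age of 6 to 10 weeks, and the SVZ was dissected 10 days after the last dose. For each of the 3 TKO and 3 THC samples, cells of several animals were combined to reach 200000 or more that carried YFP. TKO 1 and THC 1 form the batch labelled February, the other 4 the batch labelled November. The Nestin promoter is active in neural stem cells, but the sort keeps every YFP-positive cell, whatever its type.

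Oligodendrocytes wrap axons in myelin, a stack of membrane held together by proteolipids and adhesion proteins and supplied through gap junctions by neighbouring astrocytes. Astrocytes clear transmitters, move amino acids and lipids, and share much of their expression programme with the quiescent stem cells of the SVZ. The 3 retinoblastoma family proteins restrain E2F factors and so hold cell-cycle genes down, and in quiescent cells p130 and p107 also act through the CHR element in a complex with MuvB.

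Libraries held 15536084 to 16961817 reads assigned to genes. Rbl1 itself had normalized counts of 42, 18.3 and 14.5 in TKO, against 520.2, 497 and 646 in THC, so every TKO library was far below every THC library. Means of the floxed genes were 3267 in TKO and 1849 in THC for Rb1, and 939.5 in TKO and 1042 in THC for Rbl2, which encodes p130; gene-wide counts do not check recombination of a floxed part. Of the 55487 genes, 11813 had a THC mean of at least 100, and for 2745 of these (23.2%) every TKO value lay below every THC value. The 41 selected genes are 0.347% of the 11813. Across all 17278 genes that passed the filter on low values, limma called 13.6% lower and 14.3% higher in TKO at an adjusted p under 0.05. All 41 passed that filter. These shares are the background of the selection and nothing about the 41 genes is read from them. In bulk samples, fewer cells of a type and less RNA per cell cannot be told apart.

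Promoter sequences are shown for abundant genes of the myelin and astrocyte groups, chosen after their values were seen, and for Gjb1, the only gene of these groups whose window held one of the motifs searched. Each line gives the 250 bases before the transcription start from RefSeq (GRCm38.p6), 5′ to 3′ on the gene's strand, with a CHR match in capitals. They are from chr12:16653220-16653469, plus strand (Ntsr2), chr2:127656696-127656945, minus strand (Mal), chr17:37023399-37023648, minus strand (Mog), chrX:101376126-101376375, plus strand (1 of 4 Gjb1 windows), chr6:114130991-114131240, plus strand (Slc6a11) and chr7:35186135-35186384, plus strand (Slc7a10).
Ntsr2: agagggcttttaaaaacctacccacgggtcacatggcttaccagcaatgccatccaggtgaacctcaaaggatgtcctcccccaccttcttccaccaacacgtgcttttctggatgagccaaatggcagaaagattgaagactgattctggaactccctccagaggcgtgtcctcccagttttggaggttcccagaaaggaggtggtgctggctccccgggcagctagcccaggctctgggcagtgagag
Mal: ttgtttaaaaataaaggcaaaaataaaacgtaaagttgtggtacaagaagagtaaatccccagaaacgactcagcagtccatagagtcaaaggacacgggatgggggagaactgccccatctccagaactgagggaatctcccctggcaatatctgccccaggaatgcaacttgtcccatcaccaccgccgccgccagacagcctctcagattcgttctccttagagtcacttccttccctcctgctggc
Mog: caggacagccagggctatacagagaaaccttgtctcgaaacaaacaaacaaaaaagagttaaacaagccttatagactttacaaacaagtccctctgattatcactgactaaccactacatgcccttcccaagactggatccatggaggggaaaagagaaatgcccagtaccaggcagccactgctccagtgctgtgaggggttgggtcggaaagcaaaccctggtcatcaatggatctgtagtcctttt
Gjb1: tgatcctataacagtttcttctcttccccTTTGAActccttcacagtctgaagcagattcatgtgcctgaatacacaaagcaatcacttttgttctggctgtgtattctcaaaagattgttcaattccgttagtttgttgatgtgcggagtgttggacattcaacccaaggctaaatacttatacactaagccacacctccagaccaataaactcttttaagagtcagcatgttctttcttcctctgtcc
Slc6a11: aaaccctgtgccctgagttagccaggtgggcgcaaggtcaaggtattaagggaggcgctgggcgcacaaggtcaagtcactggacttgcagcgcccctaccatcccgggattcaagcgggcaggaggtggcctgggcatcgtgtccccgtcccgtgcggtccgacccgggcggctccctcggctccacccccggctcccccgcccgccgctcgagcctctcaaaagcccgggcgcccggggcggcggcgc
Slc7a10: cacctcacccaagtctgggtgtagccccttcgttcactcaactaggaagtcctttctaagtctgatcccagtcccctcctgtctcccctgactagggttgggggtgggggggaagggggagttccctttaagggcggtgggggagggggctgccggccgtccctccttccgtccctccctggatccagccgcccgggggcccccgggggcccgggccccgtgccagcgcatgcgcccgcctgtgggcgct

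RefSeq windows, from 250 bases before to 50 after the start, were found for 35 of the 41 genes by symbol. None of the 35 held an E2F match (TTTCCCGC, TTTGGCGC, TTTCGCGC or TTTGCCGC on either strand), against 457 of 9338 genes with a THC mean of at least 100 (4.89%). The CHR letters TTTGAA stood in a window of 4 of the 35 (11.4%), Gjb1, Gm43305, Mroh7 and Pygm, and in 1313 of the 9338 (14.1%). The palindromic NFI motif was in none of the 35 and in 3 of the 9338 (0.0321%). All searches covered both strands, no CHR match in the 35 genes overlapped another motif, and the counts describe letters and not binding. The windows printed differ in composition: 71.2% of bases were G or C before Slc6a11 and 69.6% before Slc7a10, against 46.8% before Mog and 40.4% before Gjb1.

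**Figure D1:**
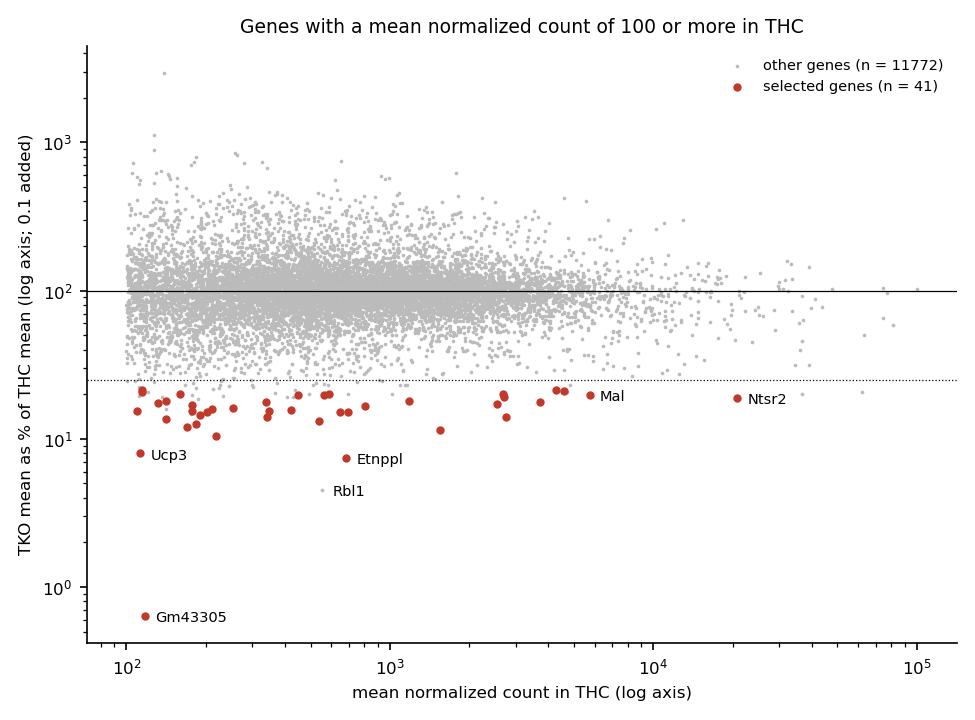
The mean TKO level as a percentage of the mean THC level (vertical log axis, 0.1 added to each mean) is plotted against the mean normalized count in THC (horizontal log axis) for genes with a THC mean of at least 100; the dotted line marks 25%. The 41 selected genes lie under the line from a THC mean of 109 (Gm35618) to 20873 (Ntsr2), with Gm43305 far below the rest; Rbl1 is among the grey points because it was left out.

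Mean TKO values were 0.550% to 21.4% of the THC mean, with a median of 16%, and summed over the 41 genes the TKO libraries held 18.2% of the THC amount. Gm43305, Etnppl (7.42%), Ucp3 (7.90%) and Fam163a (10.3%) had the lowest remaining levels, and Omg (21.4%), Camk1g (21.1%) and Slc6a11 (20.9%) the highest. The sums over all 41 genes were 12865, 9508 and 11517 in TKO, against 72650.4, 63775 and 49491 in THC. Within TKO the February library TKO 1 was the highest of the 3 for 28 of the 41 genes (40.5% of all genes with a THC mean of at least 100). Without TKO 1 the same rule finds 86 genes.

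Around the threshold the values run on without a break. Just inside were Mog, Camk1g and Gm16499, whose highest TKO values were 24.8%, 24.6% and 24.4% of the THC mean. Just outside were Ache, which breaks down acetylcholine (25.1%), the myelin tight junction gene Cldn11 (25.3%) and Gabbr2, a subunit of the GABA-B receptor (25.5%). A further myelin gene, Mobp, followed closely with 1207, 649 and 1075 in TKO, against 5236, 4134 and 4758 in THC. In all, 44 other genes had a TKO mean under 25% of the THC mean but were not members. For 33 of them TKO 1 was at or over the limit.

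**Figure D2:**
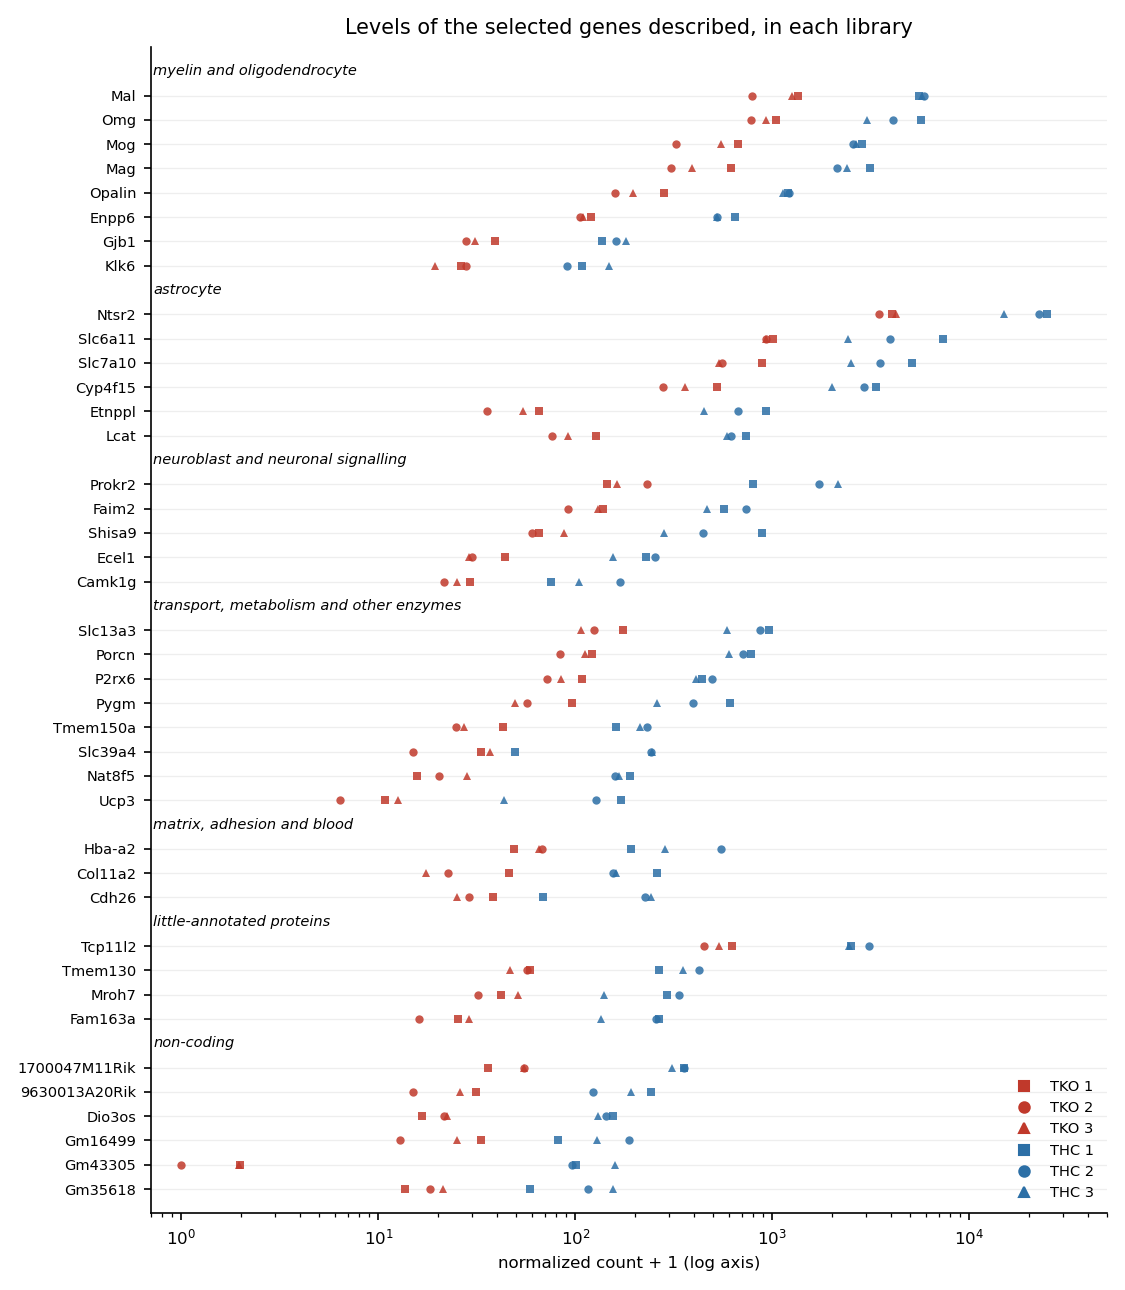
Normalized count plus 1 (horizontal log axis) of the selected genes described here in each library, red for TKO and blue for THC, with squares for replicate 1 (February) and circles and triangles for replicates 2 and 3 (November). The selection keeps the red and blue points of a row apart; the THC points are close together for Mal and Opalin and spread widely for Ucp3, Slc39a4 and Shisa9.

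Of the groups of selected genes, the 9 myelin and oligodendrocyte genes varied least within THC. Their median ratio of highest to lowest THC library was 1.33, against 1.66 over the 41 genes. Over the 11813 genes with a THC mean of at least 100 it was 1.30, so the myelin genes were not unusually even. Mal, a proteolipid that sorts membrane into compact myelin, had normalized counts of 1344, 789.9 and 1257 in TKO, against 5524, 5909 and 5759 in THC. Mog, an immunoglobulin-domain protein on the outer face of myelin, had 670.5, 323 and 549 in TKO, against 2868, 2577 and 2665 in THC. The THC values of both genes lay within 1.11-fold of each other, while TKO 2 was the lowest TKO library for each.

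Mag, an adhesion molecule of the myelin layer next to the axon, was at 618, 304 and 392.1 in TKO, against 3147, 2131 and 2403 in THC. Opalin, a transmembrane glycoprotein of oligodendrocytes at the paranode, was at 281, 158 and 196 in TKO, against 1206, 1216 and 1136 in THC. Omg, a membrane-anchored glycoprotein made by oligodendrocytes and neurons that inhibits neurite growth, was at 1045, 781 and 925 in TKO, against 5713, 4107 and 3026 in THC. Again TKO 1 was the highest TKO library for each of these genes, and TKO 2 the lowest. Omg lies inside Nf1 on the opposite strand. Strand was lost in library preparation. Overlap was judged from gene spans and not from exons, so whether reads of this pair could be shared was not tested. Nf1 was at 419.7, 436 and 509 in TKO, against 420.0, 335 and 378 in THC.

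Gjb1, a gap junction protein of oligodendrocytes, had normalized counts of 38.1, 26.9 and 29.9 in TKO, against 136, 161 and 181 in THC. Klk6, a secreted protease of oligodendrocytes, was low in both genotypes at 25.4, 26.9 and 18.4 in TKO, against 107, 89.7 and 147 in THC. Enpp6, a choline phosphodiesterase that marks newly forming oligodendrocytes, was at 119, 104 and 108 in TKO, against 646, 520.3 and 523 in THC. Enpp6 stood on the progenitor list, and it is the only gene of that list among the 41.

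Taken as means, Mal was at 1130.1 ± 298 in TKO and 5731 ± 194 in THC (SD, n = 3 each), Mog at 514 ± 176 in TKO and 2703 ± 149 in THC, Mag at 438 ± 162 in TKO and 2560.5 ± 526 in THC and Opalin at 212 ± 63 in TKO and 1186 ± 43.6 in THC. The summed counts of the 9 genes were 4174, 2527 and 3506 in TKO, against 19528, 16811 and 15984 in THC, so that TKO held 19.5% of the THC amount. Remaining levels of single genes ranged from 17.1% (Mag) to 21.4% (Omg). The rule limits the upper end of this range in every group, so the ranges of the groups are not compared. The median remaining level was 23.3% in the February pair and 17.5% in the November libraries, and 7 of the 9 genes kept less in November.

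Most other genes of the myelinating oligodendrocyte list were lower as well. Lists were counted in a limma fit on log2(value + 1) with batch and genotype as terms, adjusted over all 17278 genes. Of 45 other list genes, 39 fell and none rose (86.7%, against 13.6% of all genes lower), with a median log2 change of -1.64, beside 0.00 over all genes tested. Trf, the iron carrier transferrin, and Cnp, a phosphodiesterase of myelin, also fell, Trf with a log2 change of -1.71 (SE 0.17, limma adjusted p = 1.8e-05) and Cnp with -1.44 (SE 0.15, limma adjusted p = 2.3e-05). Of 19 other genes of the progenitor list, 2 fell and 2 rose, with a median of 0.07. Those counts moved with the libraries used: 1 fell without any single library other than THC 3, and 4 rose without THC 1 or TKO 1, 1 without THC 3 or TKO 3 and none without THC 2 or TKO 2.

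The 6 astrocyte genes were the most abundant group. Ntsr2, a receptor for neurotensin that astrocytes carry, had normalized counts of 4065, 3498 and 4255 in TKO, against 24894, 22698 and 15027 in THC. It was the highest of the 41 genes also per length, with 1263 normalized counts per kilobase of exon in TKO and 6690.1 in THC. Next per length in THC were Mal (2063), Omg (1922), Slc7a10 (1757) and Mog (1586).

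Slc6a11, a GABA transporter of astrocytes, was at 1010.1, 931 and 926 in TKO, against 7380.4, 3945 and 2423 in THC. Slc7a10, an exchanger of small neutral amino acids such as D-serine and glycine, was at 886, 555 and 536 in TKO, against 5093, 3517 and 2518 in THC. Slc7a10 overlaps Lrp3 on the opposite strand, which was at 561, 378 and 390.2 in TKO, against 839, 608 and 642 in THC. The 3 THC libraries differed far more for these transporters than for Mal and Mog, and THC 1 was the highest and THC 3 the lowest for each.

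Cyp4f15, a monooxygenase of fatty acids and leukotrienes, had 525, 278 and 358 in TKO, against 3355, 2933 and 1999 in THC. Lcat, which esterifies cholesterol on lipoproteins, had 126, 75.2 and 90.8 in TKO, against 735, 614 and 589 in THC. Etnppl, which breaks down phosphoethanolamine, had 64.4, 34.4 and 53.1 in TKO, against 932, 668 and 448 in THC. Etnppl kept 7.42% of its THC level, the lowest of the protein-coding genes in the set.

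As means, Ntsr2 was at 3939 ± 394 in TKO and 20873 ± 5180.2 in THC (SD, n = 3 each), Slc7a10 at 659 ± 197 in TKO and 3709 ± 1298 in THC, Slc6a11 at 956 ± 47.2 in TKO and 4583 ± 2539.7 in THC and Etnppl at 50.6 ± 15.2 in TKO and 683 ± 242 in THC. Summed counts of the 6 genes were 6677, 5371 and 6219.7 in TKO, against 42389, 34374 and 23004 in THC, and TKO held 18.3% of the THC amount. THC 1 was the highest THC library for 6 of 6 genes, and for 37.8% of all 11813 genes. THC 3 was the lowest for 6 of 6 genes, and for 4159 of the 11813. TKO 1 was the highest TKO library for 5 of 6. The 65 other genes of the astrocyte and quiescent stem cell list summed to 584614, 485105 and 532936 in TKO, against 1009678, 884297 and 629333 in THC, with the same order of THC libraries; its part in the values of the 6 genes was not tested.

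Of those 65 other list genes, 45 fell (69.2%) and 4 rose in the limma fit, with a median log2 change of -0.86. The 4 that rose were Gfap (log2 change 2.01), Fabp7 (1.31), Chrdl1 (1.02) and Prom1 (0.51). Of the 65 genes, the 3 most abundant in THC did not pass the limma test. Cpe, a peptide-processing enzyme, was at 105595, 96440.4 and 105415 in TKO, against 104768, 117646 and 79543 in THC (log2 change 0.04, SE 0.28, adjusted p = 0.93). Slc1a3, a glutamate transporter, was at 83249, 66948 and 73041 in TKO, against 102905, 78016 and 50277 in THC (0.00, SE 0.27, adjusted p = 0.99). Cst3, a protease inhibitor, was at 45657, 49111 and 51671 in TKO, against 81417, 84025 and 57615 in THC (-0.59, SE 0.24, adjusted p = 0.094). Every TKO value of Cst3 lay below every THC value, and other settings gave it an adjusted p of 0.00115 (DESeq2) to 0.478 (limma without TKO 1), with 0.0401 by edgeR and 0.0146 by limma without THC 3. The values of Cpe and Slc1a3 overlapped between the genotypes.

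**Figure D3:**
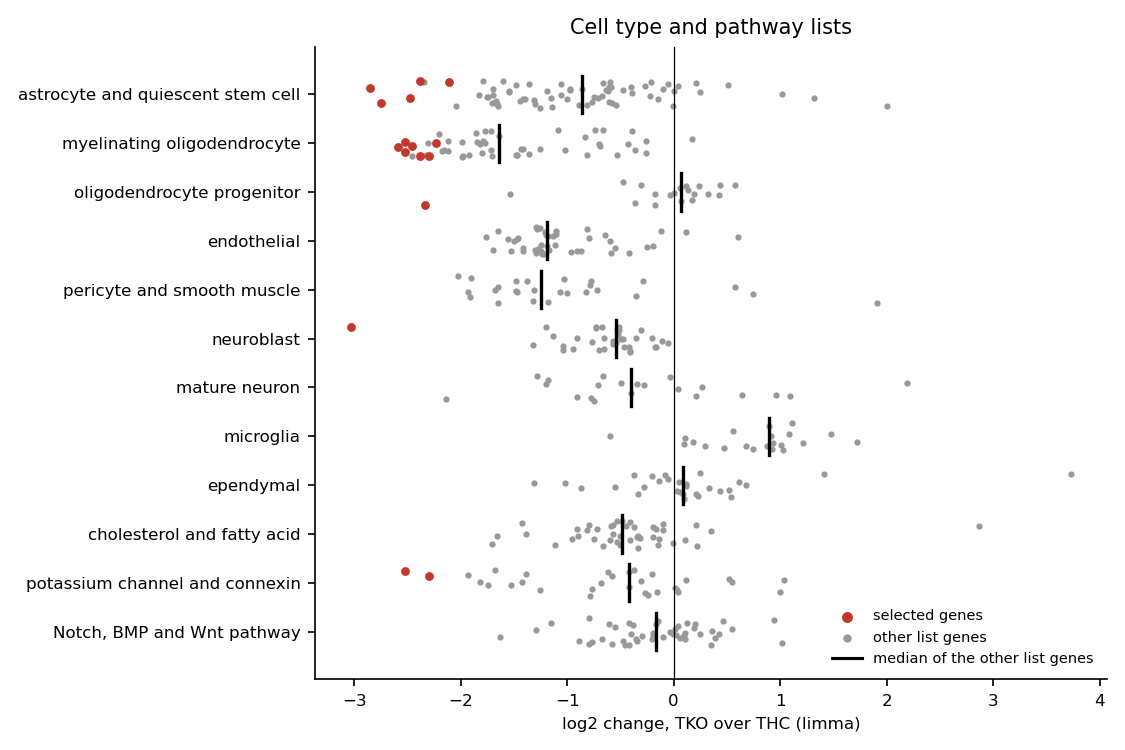
Log2 change of each gene, TKO over THC, from limma on log2(normalized count + 1), by cell type or pathway list, with selected genes in red, other list genes in grey and the median of the other list genes as a black bar. The red points sit at the left edge by selection; the median of the other genes is -1.64 for the myelinating oligodendrocyte list and 0.07 for the progenitor list.

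**Figure D4:**
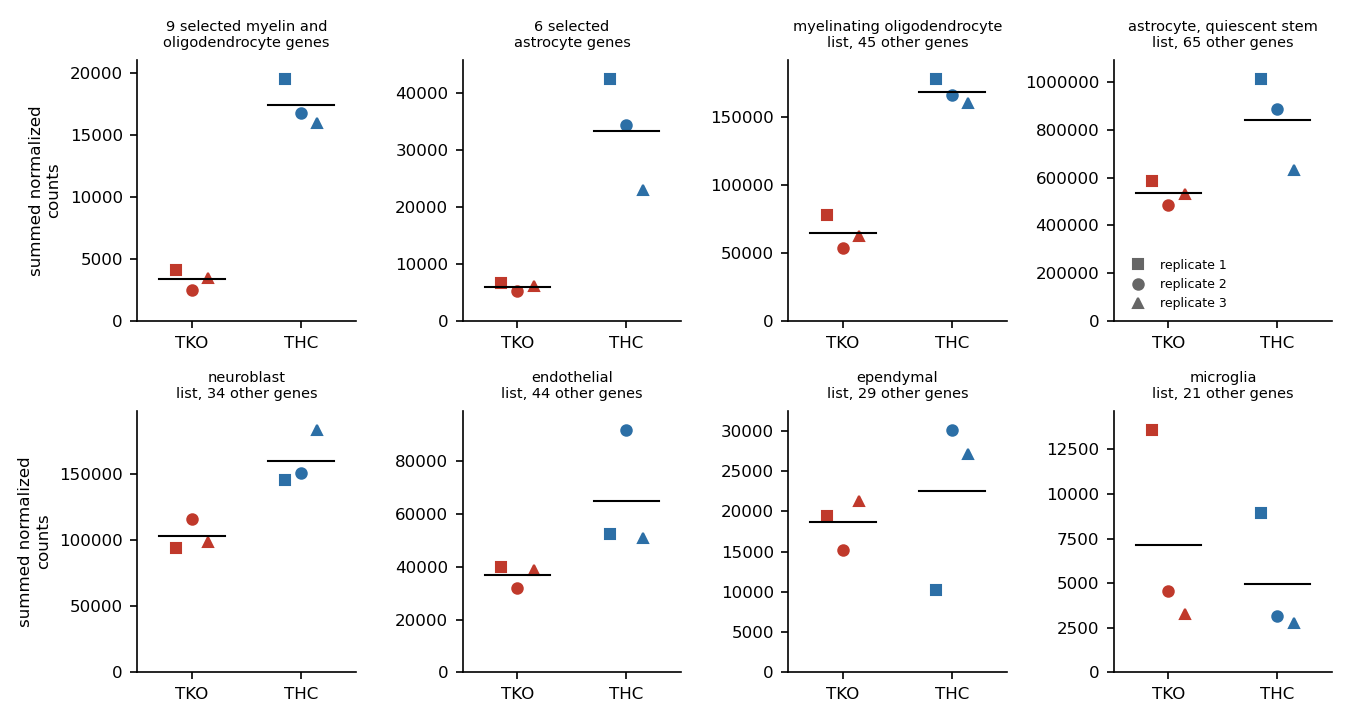
Summed normalized counts per library for the selected myelin and astrocyte genes and for the other genes of 6 lists, TKO in red left of THC in blue, with bars at the mean of 3 libraries. THC 1 is the highest THC library in the astrocyte panels and the lowest in the ependymal panel, and THC 2 is the highest in the endothelial panel.

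The 5 genes of neuroblast and neuronal signalling were less alike. Prokr2, the receptor of prokineticin 2, which guides neuroblasts to the olfactory bulb, had 143, 231 and 161 in TKO, against 799, 1722 and 2147 in THC. Here THC 1 was the lowest THC library and THC 3 the highest, the reverse of the astrocyte genes. Prokr2 kept 18% of its THC level in February and 10.1% in November. The 34 other neuroblast list genes summed to 93783, 116030.1 and 98482 in TKO, against 145339, 150805 and 182909.7 in THC, and 23 of them fell and none rose (67.6%, median -0.54); 15 fell without THC 1, THC 3 or TKO 1.

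Shisa9, an auxiliary subunit of AMPA-type glutamate receptors, was at 64.4, 59.1 and 86.9 in TKO, against 890.1, 441 and 279.7 in THC. Faim2, an inhibitor of Fas-induced death found mainly in neurons, was at 137, 90.3 and 129 in TKO, against 569, 732 and 466 in THC. Ecel1, a membrane peptidase-like protein of neurons, was at 42.9, 29 and 28 in TKO, against 227, 254 and 154 in THC. Shisa9 followed the order of the astrocyte genes within THC, with a 3.18-fold gap between THC 1 and THC 3, whereas Faim2 and Ecel1 were highest in THC 2. Camk1g, a calmodulin-dependent kinase, had 28.3, 20.4 and 24.1 in TKO, against 74.2, 168 and 103 in THC, and kept 38.2% in February and 16.4% in November. Of 21 measured genes of the mature neuron list, none was selected; 5 fell and 1 rose, with a median of -0.40 (2 rose without THC 2 or THC 3).

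Solute carriers made up 4 of the 41 genes (9.76%), against 217 of the 11813 (1.84%). Beside Slc6a11 and Slc7a10, Slc13a3, a sodium-coupled carrier of dicarboxylates, had 174, 124 and 105 in TKO, against 955, 862 and 588 in THC. Slc39a4, a zinc importer, had 32.2, 14 and 35.7 in TKO, against 48.1, 242 and 244 in THC. Slc39a4 was low in THC 1, only 1.35-fold above the highest TKO value, and THC 3 was 5.08-fold above THC 1.

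Among enzymes, Pygm, a glycogen phosphorylase of muscle and astrocytes, was at 94.7, 55.9 and 48.3 in TKO, against 611, 397 and 259 in THC. Porcn, which attaches the lipid that Wnt proteins need for secretion, was at 121, 82.8 and 111 in TKO, against 776, 711 and 599.9 in THC. Ucp3, a carrier of the inner mitochondrial membrane, was at 9.76, 5.37 and 11.6 in TKO, against 170.4, 126 and 42.4 in THC. Pygm, Porcn, Ucp3 and Slc13a3 shared the order of the astrocyte genes within THC, over a 1.29-fold range for Porcn and a 4.02-fold range for Ucp3. Nat8f5, of an acetyltransferase family with close copies between which reads may be shared, was at 14.6, 19.3 and 27 in TKO, against 188, 158 and 166 in THC.

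Of the membrane proteins left, P2rx6, a subunit of ATP-gated channels, was at 107, 70.9 and 84 in TKO, against 436, 492 and 411 in THC. It overlaps Slc7a4 on the opposite strand, which was at 199, 121 and 113 in TKO, against 522, 637 and 434 in THC. Overlap of their exons was not checked, so whether reads of the pair could be shared was not tested. Tmem150a, a regulator of phosphoinositide synthesis at the plasma membrane, was at 42, 23.6 and 26.1 in TKO, against 160.4, 231 and 213 in THC. It overlaps Rnf181, which was at 1586, 1708 and 1687 in TKO, against 1316, 1604 and 1585 in THC and did not share its pattern. Over the 8 genes of this group TKO held 15.8% of the THC amount.

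Matrix, adhesion and blood genes numbered 3. Col11a2, a chain of a fibrillar collagen, was at 44.9, 21.5 and 16.4 in TKO, against 258, 154 and 161 in THC. Cdh26, a cadherin, was at 37.1, 27.9 and 24.1 in TKO, against 67.2, 226 and 240.4 in THC. Hba-a2, an alpha globin chain of red blood cells, was at 47.8, 66.6 and 64.7 in TKO, against 190.4, 547 and 283 in THC. Each had another order of THC libraries: Col11a2 was highest in THC 1, Cdh26 in THC 3 and Hba-a2 in THC 2. Hba-a2 has a near-identical copy, Hba-a1, between which reads may be split, and Hba-a1 missed the threshold at 55.6, 111 and 79.2 in TKO, against 205, 755 and 330.2 in THC.

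Summed levels of other cell type lists also differed between libraries. For the counts below, limma called 13.6% of all genes tested lower and 14.3% higher in TKO. The 44 endothelial list genes, none of them selected, summed to 39790.2, 31849.8 and 38662 in TKO, against 52411, 91678 and 50827 in THC, highest in THC 2; 32 fell and 1 rose, with a median of -1.19 (2 rose without THC 2, none without THC 1, THC 3, TKO 1 or TKO 3). The 29 measured ependymal genes summed to 19412, 15222 and 21271 in TKO, against 10276, 30068 and 27143 in THC, lowest in THC 1; 3 fell and 4 rose (median 0.09), and 10 fell without THC 1 or TKO 1, against 1 without THC 2, THC 3, TKO 2 or TKO 3. The ependymal genes that rose were 2 without THC 1 and 1 without TKO 1 or TKO 3. Of 26 pericyte and smooth muscle genes 19 fell and 2 rose (median -1.24, with 1 rising without THC 3 or TKO 3). The 21 microglia genes summed to 13578, 4549 and 3284 in TKO, against 8916, 3162 and 2746 in THC, highest in the February libraries, with 8 that rose and none that fell (median 0.90); 4 rose without THC 3 and 2 without TKO 2, and 1 fell without THC 1 or TKO 1. Of the 41 selected genes, 21 were highest in THC 1 and 21 were lowest in THC 3, against 4466 and 4159 of the 11813 genes. Fewer were highest in THC 2 (13) or lowest in THC 1 (11), against 3148 and 4275 of the 11813 genes. Hba-a2 was both highest in THC 2 and lowest in THC 1, as were Mal, Tmem130, Tmem150a, Gm16499 and Camk1g. Slc39a4 and Cdh26 were also among those lowest in THC 1. The part of these cell types in the values of the 41 genes was not tested.

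Among the pathway lists, Gjb1 was on that of potassium channels and connexins. Of 29 other potassium channel and connexin genes 11 fell and 1 rose (median -0.42), with 6 falling without THC 1 or TKO 1 and 7 without TKO 2, and 2 rising without THC 1 or TKO 1 and none without TKO 3. Of 43 cholesterol and fatty acid genes 22 fell and 1 rose (median -0.48). Of 47 Notch, BMP and Wnt genes 9 fell and 4 rose (median -0.16), with 5 falling without THC 2 and 14 without THC 3. Porcn, which acts on Wnt proteins, was not on that list.

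The 4 proteins with little annotation were Tcp11l2, Tmem130, Mroh7 and Fam163a. Tcp11l2 was abundant, at 624, 449 and 538 in TKO, against 2505, 3094 and 2455 in THC. Tmem130 had 57.6, 55.9 and 45.4 in TKO, against 265, 425 and 350.4 in THC. Mroh7 had 41, 31.2 and 50.2 in TKO, against 291, 335 and 138 in THC, and Fam163a 24.4, 15 and 28 in TKO, against 264, 256 and 134 in THC. Tcp11l2 and Tmem130 were highest in THC 2, and Mroh7 and Fam163a were lowest in THC 3.

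Non-coding genes were 6 of the 41, so that 85.4% of the set was protein-coding, against 96.6% of the annotated genes with a THC mean of at least 100. Gm43305 (chromosome 14, 54292443 to 54297456, GRCm38), annotated as a processed transcript, had 0.976, 0 and 0.966 in TKO, against 100.2, 95.4 and 158 in THC. Those TKO values are 1, 0 and 1 reads, against 100, 101 and 156 reads in THC, or 0.567% of the THC level per assigned read (95% exact interval 0.0684% to 2.06%, for counting error only). The interval pools the reads of each genotype and leaves out the spread between libraries and the selection of the gene. It is no test of the difference. The next lowest TKO values were those of Ucp3. Of the genes within 100000 bases of Gm43305, Abhd4 was at 7875, 6129 and 6013 in TKO, against 7594, 7333 and 5797 in THC. Dad1 was at 2493, 2892 and 2679 in TKO, against 2478, 3304 and 2649 in THC, and Oxa1l at 1096, 1116 and 1098 in TKO, against 1082, 1042 and 1004 in THC. The values of these 3 genes overlapped or lay close between the genotypes, and none of the 3 passed the limma test. Slc7a7 was at 128, 109.6 and 107 in TKO, against 147, 174 and 164 in THC (log2 change -0.49, SE 0.22, limma adjusted p = 0.12). Trac, a constant gene of the T cell receptor, was at 51.7, 52.7 and 44.4 in TKO, against 31.1, 20.8 and 21.2 in THC and rose, by 1.02 on the log2 scale (limma SE 0.35, adjusted p = 0.048).

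Dio3os, a transcript that starts beside the deiodinase gene Dio3, had 15.6, 20.4 and 21.2 in TKO, against 153, 143 and 129 in THC. The long non-coding RNA 1700047M11Rik had 35.1, 53.7 and 54.1 in TKO, against 357, 357 and 310.0 in THC. Both were even within THC, within 1.19-fold. 9630013A20Rik, which lies across Pcdh17 on the opposite strand, had 30.3, 14 and 25.1 in TKO, against 241, 122 and 191 in THC, while Pcdh17 was at 907, 812 and 1055 in TKO, against 946, 531 and 621 in THC, higher on average in TKO.

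Gm35618 had 12.7, 17.2 and 20.3 in TKO, against 58.1, 115 and 155 in THC. Gm16499 had 32.2, 11.8 and 24.1 in TKO, against 80.2, 187 and 128 in THC, and kept 40.2% in February and 11.4% in November. It overlaps Tril, a gene of the astrocyte list on the opposite strand, which was at 2063, 1797 and 1793 in TKO, against 4768, 2667 and 1852 in THC. A second gene model with the same symbol overlaps it on its own strand. That model was less reduced, at 16.6, 23.6 and 25.1 in TKO, against 47.1, 54.8 and 35.3 in THC. Both models of Gm16499 were highest in THC 2 and Tril in THC 1.

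The rule did not name the batches, but it limits every TKO value, that of the February library TKO 1 included. November against February is therefore given for the 41 genes as a description, and nothing about them is read from the calls. The batch term of the limma fit called 0 of the 41 genes at an adjusted p under 0.05, and 0.637% of all 17278 genes (0.579% lower and 0.0579% higher in November). At an unadjusted p under 0.05 it gave 10 of the 41 lower and 3 higher in November, and 8.07% and 6.26% of all genes. With edgeR's quasi-likelihood test 0 of the 41 and 111 of all genes were called, and with DESeq2 4 of the 41 and 351 of all genes.

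The log2 differences, November over February, lay below 0 for 6 of 6 astrocyte genes (median -0.64) and 9 of 9 myelin genes (median -0.35). They lay below 0 for 30 of the 41 genes in all (median -0.24), and for 8728 of all 17278 genes. Among the genes lower in November were Pygm (-0.89, SE 0.24), Slc7a10 (-0.74, SE 0.15), Mag (-0.66, SE 0.15) and Cyp4f15 (-0.60, SE 0.18). Higher values in November were found for Slc39a4 (0.91, SE 0.56), Prokr2 (0.85, SE 0.22), Gm35618 (0.85, SE 0.36) and Hba-a2 (0.75, SE 0.29).

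The remaining level also differed by batch for some genes. It was lower in November for 27 of the 41, with a median of 18.3% in February and 15.4% in November. Slc39a4 kept 66.9% in February and 10.2% in November, and Cdh26 55.2% and 11.2%. Slc6a11 kept more in November, with 13.7% in February and 29.2% in November, as did Shisa9 with 7.24% and 20.3%. February holds 1 library of each genotype, so its values have no replicate check.

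**Figure D5:**
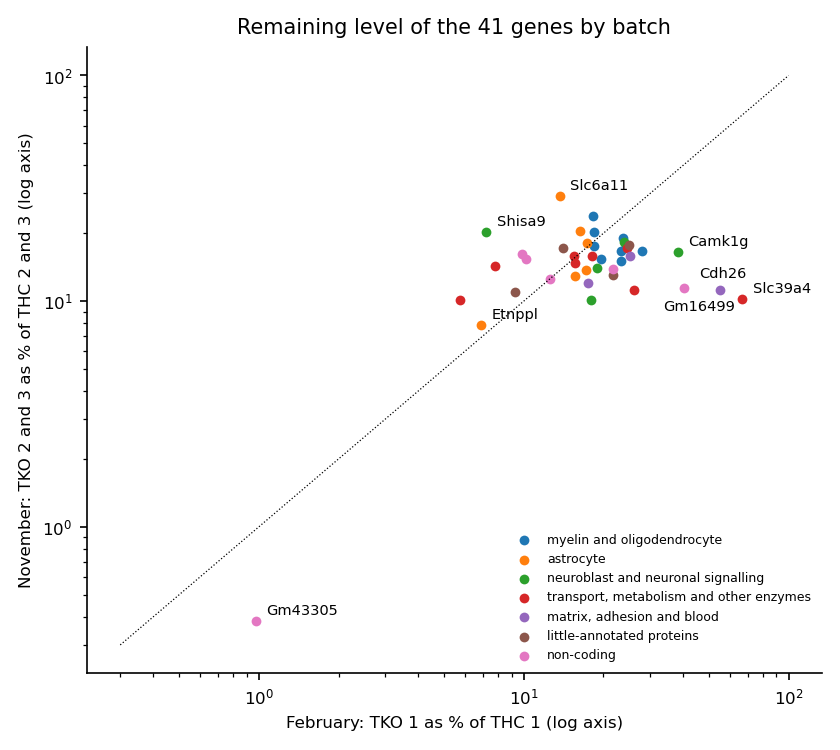
TKO level as a percentage of THC for each of the 41 genes in November (vertical log axis, TKO 2 and 3 over THC 2 and 3) against February (horizontal log axis, TKO 1 over THC 1), coloured by group; the dotted line marks equal values. Most genes lie between 10% and 30% on both axes; Slc39a4 and Cdh26 lie far to the right, at 66.9% and 55.2% in February, and Gm43305 is near 0 in both batches.

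The 41 genes had a median of 3000 bases of exon and a median THC mean of 347, against 4683 bases and 670 for the 11813 genes with a THC mean of at least 100. Per kilobase the medians were closer, at 112 and 142 normalized counts. They lay on 18 chromosomes, with at most 4 genes on any. Of those on the chromosomes of the targeted genes, Slc13a3 was nearest, 8.20 Mb from Rbl1, followed by 9630013A20Rik, 11.1 Mb from Rb1. Gm43305, with the lowest remaining level, lay 18.9 Mb from Rb1.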

How the data were processed

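RNA-seq of 6 libraries was analysed. Per the submitters' processing notes, HISAT2, featureCounts from Subread and DESeq2 were used with GRCm38. Versions, annotation and the handling of multi-mapped reads were not given in the sources used here. Per the labels' protocols, at least 35 ng of total RNA of quality number 8.0 or more was made into cDNA with a SMART-Seq kit and into libraries with Nextera XT, which keep no strand. The authors' deposited table gives normalized counts, a signal scaled by 1 factor per library. All of these values (100%) were whole multiples of 1 step per library, within 0.001 of a read, and gave the reads. Per the file headers, the table also holds a log2 fold change, its standard error and statistic, a score used as weight, and p-values; none of these was used here.

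The 41 genes and the 12 gene lists were chosen with earlier results of these data known. The grouping of the 41 genes by role was made by hand after their values were seen. Values were given per sample for the genes described; 1 of the 41 genes and 1 list example are not reported here. Genes with a normalized count of at least 10 in at least 3 samples were tested with limma (version 3.58.1, R 4.3.3, intensity trend) on log2(value + 1), with batch and genotype as terms and Benjamini-Hochberg adjustment over 17278 genes; this understates the change of low genes. List examples were the 3 genes with the highest THC mean outside the 41 genes, a rule added after the data were seen, and are given for 2 lists. edgeR (4.0.16) and DESeq2 (1.42.0) were run on the recovered reads. On simulated data for 17022 genes, limma recovered 97.0% of genes changed 2-fold between TKO and THC, and 95.5% between November and February. The simulation gave every gene the same dispersion and changed only genes above a minimum level. These shares check the code and need not hold for the real libraries. GEO's series text describes these as biological replicates. Coordinates and exon lengths are from GENCODE M21 (GRCm38), which held 17263 of the 17278 genes. Intervals cover counting error only. 114 symbols were shared by several rows.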

Additional observations from a re-analysis of the deposited data

How the results depend on the processing

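The number of selected genes followed its limits. It was 109 with a limit of 1/3 of the THC mean, 17 with 1/5, 27 with a minimum THC mean of 200, 56 with a minimum of 50 and 41 with TMM scaling, and 39 to 86 with 1 library left out, the 86 without TKO 1. All 41 were among the genes selected with TMM scaling, and 32, 35 and 36 of them without THC 1, THC 2 or THC 3. Leaving out a TKO library cannot remove any of the 41, because the rule limits the highest TKO value. That they stayed selected without a TKO library is therefore no check. Between November and February, 100 genes were lower and 10 higher in November. DESeq2 gave 276 and 75, edgeR 5 higher, no filter 4 higher, and leaving out 1 library 36 to 151 lower (36 without THC 1, 151 without THC 2, 50 without TKO 3) and 3 to 276 higher (3 without TKO 3, 276 without TKO 1). Of the 41 genes, 1 was called with a pseudocount of 5 (131 of all genes), 4 with DESeq2 (351 of all), and 0 to 4 with 1 library left out. The 4 were called without TKO 1 (425 of all genes), where THC 1 is the lone February library and is assumed to vary like the others, and 1 without THC 2 (163 of all); the cause was not tested. Counts of genes lower and higher in TKO, and of other myelin and astrocyte list genes that fell, stayed within 1.5 times under every setting tried. Without a batch term no microglia gene and no progenitor gene rose (8 and 2 with it), and 1 ependymal gene fell (3 with it, 0 by DESeq2). With the replicate number as a block in place of batch, 1922 genes were lower and 2147 higher in TKO, against 2345 and 2469. Deviations of same-numbered libraries correlated at 0.231, -0.106 and 0.141, so the numbers were not taken as pairs. The lowest selected genes rest on few reads in TKO.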

Other observations

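Under the mirrored rule, with a TKO mean of at least 100 and every THC value under 25% of it and below every TKO value, 103 genes were found, against 41 under the rule used here. Gabbr2, a subunit of the GABA-B receptor that just missed the threshold, was at 131, 114 and 109 in TKO, against 808, 433 and 296 in THC, with the order of THC libraries seen for the astrocyte genes. Car4, a membrane carbonic anhydrase that also just missed it, was at 292, 221 and 270.4 in TKO, against 889, 1601 and 926 in THC, highest in THC 2.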
